A study of Mus musculus with 15 samples.

Results

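Single juxtaglomerular (JG) cells of the adult mouse kidney were compared with diluted adult cortex on Affymetrix mouse gene arrays. The comparison covers 8 of the 15 arrays of the series, which were chosen by their titles: 5 arrays of 1 JG cell each, with the label numbers 4 to 8, and 3 libraries of diluted cortex, lettered A, B and C. Both groups came from adult male mice of unspecified strain that carried a renin reporter, and no treatment is recorded. The reporter is called Ren1c-YFP or Renin-YFP in some label fields and Ren1d GFP in the field on dissection. The medulla was cut away. JG cells were fluorescent cells next to glomeruli that were freed with collagenase A and trypsin and picked singly with a pulled glass needle. The diluted cortex came from a small area of the remaining tissue, holding many cell types, which was lysed, diluted and amplified like a single cell. For both groups 32 rounds of amplification are recorded, and no sample was pooled. The fields disagree on whether the cortex was lysed directly or extracted as total RNA. Other arrays served for reference only: 3 libraries of standard-labelled cortex from adult males of the same reporter line, with 1 recorded round, and 4 single cells of metanephric mesenchyme (MM) from Crym-GFP embryos at day 11.5, with 32 rounds.

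JG cells are modified smooth muscle cells in the wall of the arteriole that feeds the glomerulus. They make the protease renin, store it in granules related to lysosomes, and release it when blood pressure or salt delivery falls, with cyclic AMP as the main signal. Renin cleaves angiotensinogen, which starts the cascade that ends in angiotensin II. Kidney cortex, in contrast, consists mostly of tubule, above all proximal tubule, so that most RNA of a cortex lysate comes from epithelium.

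All values are log2 probe set signals, so a difference of 1 is a 2-fold ratio. A gene was represented by its brightest probe set with 1 symbol, which left 19938 genes. The 1015 olfactory receptors, which served as a background class, were higher in JG cells by a median of 1.03, so each difference is also given relative to this shift. The 99th percentile of the receptors on an array was taken as its background level. It was 7.62 to 8.003 in JG cells and 6.32 to 6.41 in diluted cortex. Above it lay 1219 to 2580 genes per JG cell (6.11% to 12.9%, lowest in cell 5 and highest in cell 8), against 9240 to 9506 in the diluted libraries (46.3% to 47.7%). Across genes, which are not replicates, pairs of JG cells correlated at r of 0.705 to 0.780 and pairs of diluted libraries at 0.989 to 0.995. No label names an animal, so the 5 cells count as 1 sample and no test or p-value is given. SDs describe the spread over these cells or libraries, which may be technical.

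Of the 19938 genes, 109 (0.547%) were higher in JG cells by 1 or more beyond the receptor shift, and 8166 (41%) were lower by as much. In 102 and 5850 of them, respectively (0.512% and 29.3% of all 19938 genes), no JG cell overlapped a diluted library. A gene with equal signal in both groups thus counts as lower, since the shift is 1.03. With the receptors split into 4 classes by their level in cortex, the shift was 0.93 in the dimmest and 1.17 in the brightest class, and whether it holds for far brighter genes was not tested. The median difference over all genes was 0.56, or -0.47 relative to the shift. When arrays were centred on the median of all probe sets instead of the receptors, 1366 genes were higher and 6763 were lower. Of the 8808 genes above background in all 3 diluted libraries, 7377 (83.8%) were lower in JG cells, though this filter used diluted cortex alone. Against the standard-labelled cortex, 190 genes (0.953%) were higher and 7323 (36.7%) were lower. A small group of higher genes thus stood beside a very large group of lower ones.

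**Figure D1:**
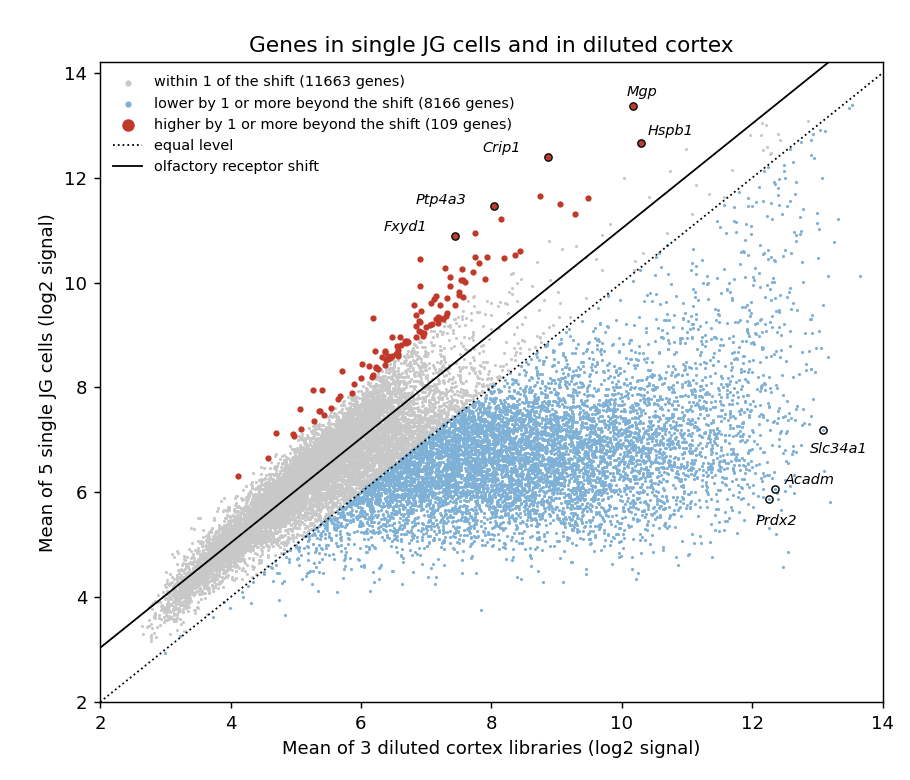
Each point is 1 of 19938 genes, with its mean over 3 diluted cortex libraries (x axis, log2 signal) against its mean over 5 JG cells (y axis, log2 signal). The solid line marks the olfactory receptor shift of 1.03 and the dotted line equal levels; 109 genes lie 1 or more above the shift and 8166 lie 1 or more below it.

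The 4 genes given as markers of these cells were above background in each of the 5 cells, as were 566 (2.84%) of all genes. The markers were chosen with earlier results of these data known, so this is a description and no independent check. Mgp, which encodes matrix Gla protein, an inhibitor of vascular calcification, measured 13.46, 13.41, 13.16, 13.45 and 13.31 in JG cells 4 to 8, against 9.82, 10.59 and 10.12 in diluted libraries A to C. Its lowest cell thus lay well above its highest library. Crip1, which encodes a small LIM domain protein reported in renin cells, measured 13.01, 12.19, 12.71, 12.11 and 11.96 against 8.62, 9.14 and 8.85, again with no overlap. Relative to the receptor shift, Mgp was 2.15 and Crip1 2.49 higher. Both were near background in MM cells, at 6.41 to 7.35 and 6.74 to 7.93.

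The other markers varied between cells. Ptp4a3, which encodes a phosphatase of the PRL family found in vascular cells, measured 12.55, 9.98, 10.52, 12.03 and 12.19 against 8.15, 7.95 and 7.996. Cells 4, 7 and 8 were near 12 and cells 5 and 6 near 10. Fxyd1, which encodes phospholemman, a regulator of the sodium pump in muscle, measured 8.37, 8.50, 12.92, 12.67 and 11.95 against 7.36, 7.55 and 7.42. Cells 4 and 5 were little above their background levels, and cells 6 to 8 were far above. Renin itself, Ren1, and the renin cell enzyme gene Akr1b7 have no probe set with 1 symbol in the annotation and were not analysed here, and neither was the reporter. The labelled cell type could therefore not be checked against its defining gene.

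Mgp also had the highest lowest value of all genes in the 5 cells, 13.16. By that order the 20 leading genes were Mgp, 10 ribosomal protein genes (Rpl41, Rplp1, Rps2, Rpl13, Rps21, Rpl36, Rpl21, Rpl8, Rps9 and Rps10), and Eef1a1, Cox6a1, Ppia, Naca, Sec61b, Tmsb4x, COX2, Cox8a and Crip1. Eef1a1 encodes a translation elongation factor, Naca a ribosome-associated chaperone, Sec61b a part of the channel into the endoplasmic reticulum (ER), and Ppia a prolyl isomerase. COX2 (mitochondrially encoded), Cox6a1 and Cox8a encode subunits of cytochrome c oxidase. Several of these genes were nearly as bright, or as bright, in diluted cortex. Rpl41 measured 12.89 to 13.20 in JG cells and 12.10 to 12.23 in diluted libraries, and COX2 12.15 to 12.95 and 12.85 to 12.95. Mgp and Crip1 differed from this group in that cortex held much less of them. Tmsb4x, which encodes the actin-binding peptide thymosin beta 4, lay between, at 12.29 to 12.86 against 10.93 to 11.05, or 0.53 relative to the shift. In all, 46 genes reached 10 or more in every JG cell, of which 12 encode ribosomal proteins, 10 were among the 109 higher genes and 16 among the 8166 lower ones.

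The 109 higher genes fell into a uniform and a variable kind, and the boundary, an SD of 0.5 over cells, was set after the values were seen. In 41 genes the SD was 0.5 or more, and 23 of these reached 11 or more in at least 1 cell. Sfrp2, which encodes a secreted modulator of Wnt signals, measured 12.88, 7.44, 10.39, 11.85 and 12.21 in cells 4 to 8, against 7.36 to 8.10 in diluted cortex. Only cell 5 lay within the cortex range. Kcna5, which encodes a voltage-gated potassium channel of vascular smooth muscle, measured 11.58, 6.20, 5.70, 11.50 and 11.62, against 5.33 to 6.81. Cells 4, 7 and 8 were nearly alike, while cells 5 and 6 were below background.

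Other genes of the variable kind were high in other sets of cells. Emp3, which encodes a small membrane protein, measured 7.17, 7.76, 12.62, 13.13 and 11.91 against 8.25 to 8.44, high in cells 6 to 8. Sncg, which encodes gamma-synuclein, measured 11.82, 7.73, 7.59, 8.25 and 12.51 against 7.40 to 7.52, high in cells 4 and 8. Ager, the receptor for advanced glycation end products, reached 11.58 and 12.70 in cells 7 and 8 and was 7.59, 7.52 and 7.93 in cells 5, 6 and 4. The secreted protein gene Ccdc3 was high in the same pair of cells, at 11.63 and 10.31, with 8.80 in cell 6. Of the 5 cells, cell 8 alone was at 10 or more for all 6 of these genes, and cell 5 was at 10 or more for none of them. By the count of variable genes at 11 or more, cells 4 to 8 had 11, 7, 7, 14 and 13 of 41.

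Some of the 109 genes rested on 1 cell. Pln, which encodes phospholamban, the inhibitor of the calcium pump of muscle, was 12.32 in cell 8 and 6.21 to 6.57 in the others, which is below their background. Apold1, a vascular immediate early gene, was 12.80 in cell 4 and 7.45 to 7.84 elsewhere. Jph2, which encodes junctophilin 2 of muscle membrane junctions, was 12.07 in cell 7 and 8.08 to 8.92 in the others. Diluted cortex held 5.30 to 5.45 of Pln, 5.99 to 6.75 of Apold1 and 6.96 to 7.08 of Jph2. Several of these genes were chosen for the text after their values were seen (Sfrp2, Kcna5, Emp3, Sncg, Apold1 and Jph2).

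**Figure D2:**
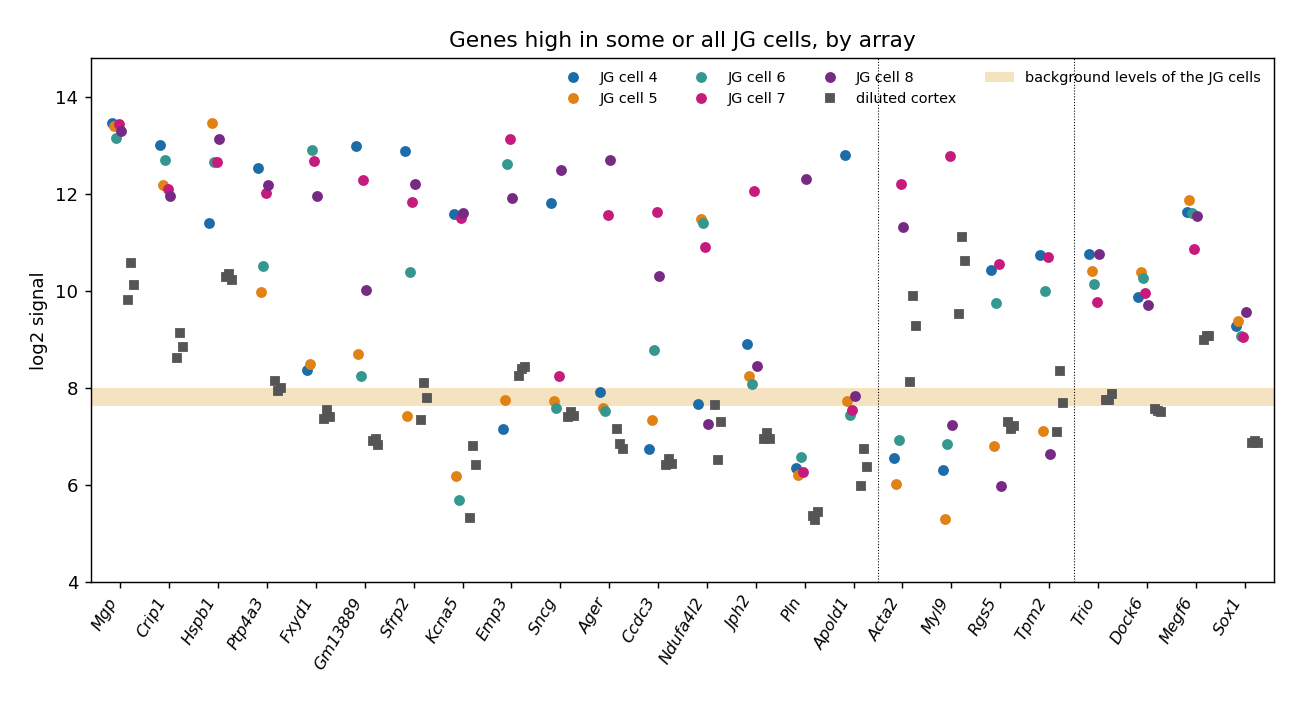
Log2 signal (y axis) of 24 genes, 1 per column, in JG cells 4 to 8 (coloured circles) and in the 3 diluted cortex libraries (grey squares), with the background levels of the JG cells as a band (7.62 to 8.003). From left, the first 16 are higher genes of both kinds, the next 4 are mural genes, and the last 4 are uniform genes; Mgp and Crip1 are high in every cell, while Kcna5, Emp3 and Sncg are high in some cells and near or below background in others.

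The remaining 68 higher genes had an SD under 0.5, with a median SD of 0.35. Apart from Mgp and Crip1, these 66 genes were only 0.29 to 1.25 higher in JG cells than in MM cells, and the highest value of any JG cell was 11.93. Among the genes ranked 11 to 30 by difference, 14 were of this uniform kind. Trio and Dock6, both genes of signalling proteins, measured 9.77 to 10.78 and 9.71 to 10.39 in JG cells, against 7.76 to 7.88 and 7.51 to 7.57 in diluted cortex, and 8.80 to 10.78 and 8.84 to 9.96 in MM cells. Megf6, a gene of an EGF repeat protein, measured 10.87 to 11.88, against 8.99 to 9.07 and 9.72 to 11.24. The RNA-binding protein gene Qk (8.98 to 9.99), the hepcidin gene Hamp2 (8.99 to 10.08) and the proline-rich protein gene Prp2 (9.54 to 10.60) behaved alike. So did Sox1, a transcription factor gene of neural progenitors outside these ranks, chosen after its values were seen, at 9.05 to 9.57 in JG cells and 8.17 to 9.08 in MM cells. The other genes of ranks 11 to 30 were 5730522E02Rik, AY512931, Gm10100, 1700031F05Rik, E130304I02Rik, Gm11517, Gm5244 and AA386476, 4 microRNA genes, Ager and Ccdc3. Over the 20, the difference was 2.39 to 2.73. All 109 higher genes lay beyond the highest olfactory receptor (1.95), which follows from the fold rule. The median over the 20 genes of the mean in MM cells was 9.003. Over the 4 MM cells the range was 7.10 to 7.73 for Ager, 6.30 to 7.16 for Ccdc3 and 6.54 to 7.43 for 1700031F05Rik, near or below the background levels of those arrays, while Trio, Dock6, Megf6 and Mir346 were above these levels in each MM cell. The part of signal shared by both kinds of single cell in the difference from cortex was not tested.

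Among these ranks were the microRNA genes Mir328, Mir346, Mir341 and Mir92b. The probe sets carry the symbol of the hairpin gene and do not tell which mature arm, or which precursor, was measured. The mature sequences of 3 of them, with those of Mir7-1 and Mir135a-1, which behaved otherwise, are shown to compare their base composition, from RefSeq (GRCm38.p6). Capitals mark the seed, bases 2 to 8, and the 10 seeds all differ.
mmu-miR-346-5p: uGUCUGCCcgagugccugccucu
mmu-miR-346-3p: aGGCAGGGgcugggccugcagc
mmu-miR-341-5p: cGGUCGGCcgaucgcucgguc
mmu-miR-341-3p: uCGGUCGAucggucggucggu
mmu-miR-92b-5p: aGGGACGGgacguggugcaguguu
mmu-miR-92b-3p: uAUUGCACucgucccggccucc
mmu-miR-7a-5p: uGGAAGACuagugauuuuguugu
mmu-miR-7a-1-3p: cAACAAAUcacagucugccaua
mmu-miR-135a-5p: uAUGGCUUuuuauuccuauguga
mmu-miR-135a-1-3p: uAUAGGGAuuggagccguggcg

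In GRCm38.p6 the miR-346-5p sequence lies at chr14:34894624-34894646 (plus strand), miR-341-5p at chr12:109611521-109611541 (plus), miR-92b-3p at chr3:89227126-89227147 (minus), miR-7a-5p at chr13:58392841-58392863 (minus) and miR-135a-5p at chr9:106154140-106154162 (plus). Mir346, with 65.3% G and C in its hairpin, measured 10.48, 10.78, 10.69, 10.04 and 10.45 in the 5 cells, against 7.88 to 8.01 in diluted cortex and 9.20 to 10.35 in MM cells. Mir341, with 59.4%, measured 8.87 to 10.03, against 6.77 to 6.91 and 7.81 to 8.40. Mir92b, with 67.5%, measured 8.37 to 9.12, against 6.03 to 6.48 and 7.53 to 8.81. All 3 were uniform over the cells. Mir7-1, with 41.7%, was 11.48 in cell 7 but 4.83 to 5.22 in the other 4, against 3.83 to 4.27 in diluted cortex. Mir135a-1, with 46.7%, was the reverse, at 9.84 to 10.19 in diluted cortex and 4.08 to 5.16 in JG cells, though standard-labelled cortex also gave only 5.64. These last 2 were chosen after their values were seen.

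Of the 302 microRNA genes on the array, 17 (5.63%) were higher past the fold and 8 (2.65%) lower, against 0.547% and 41% over all genes. A hairpin in RefSeq matched 258 of the 302. The level in JG cells followed hairpin G and C (r of 0.83 over the 258 genes, which share arrays and are not replicates), and so did the level in diluted cortex (r of 0.76). The difference between the groups had a median of 0.81 in 36 hairpins under 40% G and C, 0.97 in 115 from 40% to 50%, 1.31 in 81 from 50% to 60% and 1.58 in 26 of 60% or more. Base composition thus moved with the difference in this class, and its part in the uniform genes at large was not tested.

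**Figure D3:**
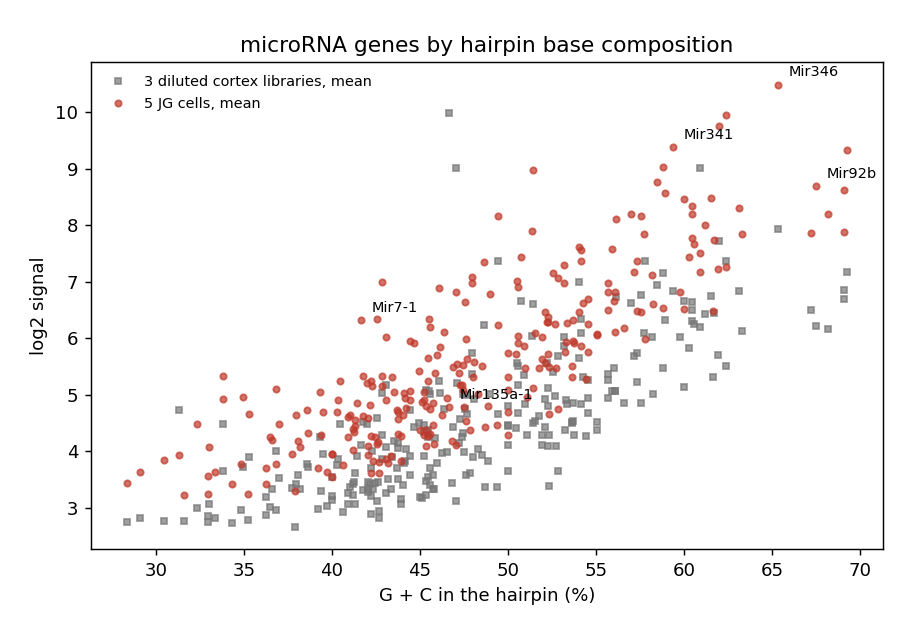
Each of 258 microRNA genes is drawn by the share of G and C in its hairpin (x axis, percent) and its mean log2 signal (y axis) in 5 JG cells (red circles) and in 3 diluted cortex libraries (grey squares). Both clouds rise with G and C; the red points lie above the grey ones by a median of 0.81 under 40% and 1.58 at 60% or more.

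Beside the counts of a list, the number of its genes that would be lower at the rate of all genes of like level in diluted cortex (the like-level rate, over classes 1 log2 unit wide from 6 to 12, with 1 open class at each end) is given as a description. A distance between them was not tested. Genes of contractile and mural cells were near the receptor shift as groups, with a sign that depends on the scaling. Single genes were far above the shift in some cells. Of 19 measured contractile smooth muscle genes, 1 was higher (Pln) and 6 were lower, against 7.36 lower at the like-level rate. Their median was -0.24 relative to the shift, against -0.47 over all genes; it was -0.97 with dim genes left out, 0.28 with arrays centred on the median of all probe sets and -0.40 against standard-labelled cortex. Acta2, smooth muscle actin, measured 6.57, 6.02, 6.93, 12.20 and 11.32 in JG cells, against 8.13, 9.89 and 9.28 in diluted cortex. Cells 7 and 8 exceeded every library and the others were below background. Myl9, a myosin light chain gene, measured 6.31, 5.31, 6.86, 12.79 and 7.24 against 9.53, 11.12 and 10.62, high in cell 7 only. Tpm2, which encodes beta-tropomyosin, was 10.74, 7.13, 10.01, 10.71 and 6.65 against 7.09, 8.36 and 7.69, high in cells 4, 6 and 7. Des, which encodes the muscle filament protein desmin, reached 10.60 in cell 8 and was at most 7.46 elsewhere. By count, 4 contractile genes lay above background in cells 7 and 8, 1 in cells 4 and 6, and 0 in cell 5. Cells 7 and 8 also had the most genes above background in all, 2003 and 2580, and the part of this in the counts was not tested.

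The 17 pericyte and mesangial genes had a median of -0.15 (0.38 with arrays centred on the median of all probe sets, -0.38 against standard-labelled cortex), with 1 higher and 1 lower, against 5.47 lower at the like-level rate. Of 85 pairs of a cell and a gene, 17 lay above background (20%, against 9.06% over all genes). The share was also 20% for interstitial fibroblast genes and 45% for collagens, so it does not mark the list. Ndufa4l2, a subunit-like gene of the respiratory chain that marks pericytes, measured 7.67, 11.49, 11.41, 10.92 and 7.27, against 7.65, 6.52 and 7.30, high in cells 5 to 7. Rgs5, a regulator of G protein signals in pericytes, measured 10.44, 6.82, 9.76, 10.55 and 5.99, against 7.30, 7.16 and 7.23, high in cells 4, 6 and 7. Heyl, a Notch target gene, was uniform at 7.96 to 8.54, against 6.33 to 6.45. Kcnj8, a subunit gene of the vascular ATP-sensitive potassium channel, was below background in every cell (6.80 to 7.53) and above it in cortex (8.08 to 8.62). Each cell was thus at 10 or more for between 1 and 5 of the 36 genes of both mural lists, and diluted libraries for 0 or 1. MM cells reached 1 to 4.

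The 13 measured genes of the renin cell list had a median of -1.13, with 1 higher, Crip1, and 7 lower (like-level rate 7.01). Of the 13, 11 were above background in no JG cell, as were 16006 of all 19938 genes. Of their pairs of a cell and a gene, 10.8% were above background, against 10.7% for all genes of like level, so these counts do not mark the list. Rgs2, a regulator of G protein signals, measured 5.38 to 6.17 against 7.60 to 7.91, Nrp1, a co-receptor of semaphorins and VEGF, 5.62 to 6.39 against 7.42 to 7.85, and the chemokine gene Cxcl12 6.14 to 7.10 against 7.95 to 8.05. Sostdc1, a BMP and Wnt antagonist that is also on the thick limb list, measured 6.42 to 7.30 against 11.23 to 11.41. In the renin-angiotensin system, 7 of 9 measured genes were lower and 0 higher, against 6.91 lower at the like-level rate. The median was -3.41, and -1.75 against standard-labelled cortex. The substrate gene Agt measured 7.54 to 7.93 against 10.46 to 10.78, the converting enzyme gene Ace 6.56 to 7.31 against 7.77 to 8.51, the aminopeptidase gene Enpep 5.47 to 7.27 against 9.64 to 9.76, and Atp6ap2, the prorenin receptor, 4.90 to 5.83 against 9.62 to 9.89. Of 20 genes of the cyclic AMP and protein kinase A pathway, 0 were higher and 6 lower (like-level rate 6.35), and the median of -0.41 became -2.01 against standard-labelled cortex. Prkar1a, the regulatory subunit gene with the largest difference, measured 5.47 to 6.83 against 10.11 to 10.33.

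The families of the marker genes did not differ in 1 direction. Of 11 genes for sodium pump subunits and FXYD regulators, Fxyd1 was higher and 5 were lower (like-level rate 7.43). Fxyd2, the FXYD protein of tubules, measured 7.98, 12.30, 7.91, 8.20 and 8.54 in JG cells, against 12.07 to 12.14, high in cell 5 alone. The pump subunit gene Atp1b1 was also highest in cell 5, at 9.93, with 6.43 to 7.002 in the others and 12.45 to 12.60 in cortex. Of 15 genes of LIM domain proteins and PTP4A phosphatases, Crip1 and Ptp4a3 were higher and 7 were lower (like-level rate 10.4). Their median was -0.87, and 0.14 against standard-labelled cortex. Csrp1, a cysteine-rich protein gene of smooth muscle, was above background in all 5 cells (8.23 to 10.998, against 9.20 to 9.71). Csrp2 (5.57 to 8.49, against 11.46 to 11.55), Ptp4a2 (4.97 to 6.71, against 8.85 to 8.96) and Crip2 (6.51 to 8.98, against 9.88 to 10.36) were lower, but against standard-labelled cortex, with a mean of 6.08, Crip2 was 0.34 relative to the shift.

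Among 29 secreted matrix genes other than collagens, Mgp was higher and 14 were lower (like-level rate 16.4), with a median of -0.78. Igfbp7, an insulin-like growth factor binding protein gene, was bright on both sides, at 12.88, 12.83, 10.53, 12.84 and 12.81 in JG cells and 12.82 to 13.07 in cortex, while MM cells held 6.37 to 7.42. Igfbp4, of the same family, was below background in every JG cell (6.46 to 7.09, against 12.62 to 12.75). Timp3, a metalloproteinase inhibitor gene, was 12.55 in cell 4 and at most 6.72 in the others, against 11.44 to 11.57. Sparc, a matrix glycoprotein gene, was 11.70 in cell 7 and at most 7.02 elsewhere, against 9.93 to 9.995. Of 16 collagen genes 0 were higher and 0 lower past the fold (like-level rate 7.93 lower), and their median was -0.12, or 0.05 against standard-labelled cortex. Col1a1 (8.33 to 8.76, against 7.16 to 7.37) and Col3a1 (7.76 to 8.11, against 6.80 to 7.05) were uniform over the cells, at 0.27 and -0.03 relative to the receptor shift.

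Tubule genes made up the other end of the comparison. The genes ranked 11 to 30 among the lower ones differed by -6.17 to -6.54, and the mean of JG cells was below every JG background level for all 20, so that these values are limited by background. Diluted cortex exceeded the highest of those levels by 2.86 to 4.64. Many serve proximal tubule metabolism. Acsm2 and Acsm3 encode acyl-CoA synthetases, Cyp2j5 a cytochrome P450, Hao2 a hydroxyacid oxidase, Ugt3a2 a glycosyltransferase, Hibadh an enzyme of valine breakdown, Acadm the medium-chain acyl-CoA dehydrogenase, Idh1 an isocitrate dehydrogenase, and Slc3a1 a subunit of the cystine transporter. Acsm2 measured 5.40, 5.92, 6.41, 5.22 and 6.44 in JG cells, against 12.54, 12.30 and 12.37 in diluted cortex. Slc3a1 measured 6.06 to 6.62, against 12.58 to 12.74, and Cyp2j5 4.94 to 5.86, against 12.02 to 12.13. Keg1, Cmbl, Tmem174 and Lgmn (the lysosomal protease legumain) followed the same pattern.

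Other genes of these ranks have roles in most cells. Hspe1 encodes a mitochondrial chaperonin, Cisd1 an iron-sulphur protein of mitochondria, Cks2 a cell cycle kinase subunit, Nus1 a subunit of dolichol synthesis, Cmpk1 a nucleotide kinase, Prdx2 a peroxidase and Mgst1 a glutathione transferase. Hspe1 measured 4.74, 5.36, 5.46, 5.71 and 4.87, against 11.76 to 11.77. Prdx2 was 11.17 in cell 6 and 3.89 to 5.13 in the other cells, against 12.11 to 12.35 in cortex and 12.36 to 13.32 in MM cells. For 5 of the 20 genes MM cells were higher than JG cells by 2 or more.

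By segment, all 26 proximal tubule transporter genes and all 21 proximal tubule enzyme genes were lower, against 83.8% of genes above background in diluted cortex. The like-level rate gives 25.1 and 20.5, so the counts do not mark these lists. Of their pairs of a cell and a gene, 10% and 9.52% were above background, against 22.6% and 33.6% for all genes of like level. Their medians were -4.98 and -6.01 relative to the shift. Slc34a1, the phosphate transporter of the brush border, measured 7.19, 6.85, 7.32, 7.02 and 7.56 in JG cells, all below background, against 13.03, 13.11 and 13.09. Slc7a13 measured 5.01 to 6.42, against 11.38 to 11.83, and the urate transporter gene Slc22a12 6.82 to 7.75, against 12.11 to 12.31. Of 12 thick ascending limb genes 11 were lower, among them Umod, which encodes uromodulin (6.46 to 7.22, against 12.46 to 12.54), and Egf (6.48 to 7.95, against 11.61 to 12.04). In the distal convoluted and connecting tubule 8 of 10 were lower. The collecting duct had 10 of 11 lower and intercalated cell genes 10 of 12. The like-level rate gives 6.36, 9.47 and 10 for these lists (thick limb 10.9). In the order distal, collecting duct, intercalated and thick limb, 6%, 20%, 5% and 11.7% of cell and gene pairs were above background. For all genes of like level the shares were 16.6%, 17.7%, 14.6% and 24.1%. Calb1, a calcium-binding protein gene, measured 5.78 to 6.64, against 10.93 to 11.23, the sodium chloride cotransporter gene Slc12a3 6.69 to 7.44, against 10.86 to 10.91, and the anion exchanger gene Slc26a4 5.38 to 5.69, against 9.24 to 9.37. None of the 6 macula densa genes was above background in any JG cell, but only 2 were above it in all diluted libraries. Of all 19938 genes, 16006 were likewise above background in no JG cell. For all genes of like level, 5.18% of pairs of a cell and a gene were above background. With 30 pairs in the macula densa list, the absence thus does not mark it.

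Single tubule transcripts were nevertheless bright in some JG cells. Over all 98 tubule genes, cells 4 and 6 had 0 at 10 or more, cells 7 and 8 had 1 and cell 5 had 4, against 50 in each diluted library and 0 to 2 in MM cells. In cell 5 these were Miox, Gpx3, S100g and Ttc36. Miox, the inositol oxygenase gene of proximal tubule, measured 6.28, 12.63, 7.40, 6.84 and 6.77 over the cells, against 12.36 to 12.40, so cell 5 matched cortex. Gpx3, which encodes plasma glutathione peroxidase, measured 6.57, 12.37, 6.79, 6.76 and 7.46, against 12.07 to 12.53. S100g, which encodes the calcium-binding protein calbindin-D9k of the distal tubule, measured 6.60, 13.05, 6.49, 6.20 and 13.07, against 12.18 to 12.27, with cells 5 and 8 above cortex. Ttc36 was 10.19 in cell 5 and at most 8.81 in the others, against 13.13 to 13.19. Fxyd2 (12.30) was also bright in cell 5, and Atp1b1, at 9.93, was just under 10. In contrast, Slc34a1, Slc7a13, the thick limb gene Umod and the proximal genes of the ranks above were at background in cell 5. Cell 5 also had the fewest genes above background (1219), and its Mgp and Crip1 (13.41 and 12.19) were as high as in other cells. The gene at 10 or more in cell 7 was Slc8a1 (11.65), a sodium calcium exchanger that muscle expresses too. What part RNA of other cells had in these values was not tested. Apart from Slc34a1, Slc7a13, Umod and Fxyd2, the genes of this paragraph were chosen after their values were seen.

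Amn and Aqp2 were the tubule genes above background in all 5 cells. Amn encodes amnionless of the proximal endocytic receptor, and Aqp2 the vasopressin-regulated water channel. They were uniform, at 8.64 to 9.12 and 8.67 to 8.97 in JG cells, 7.96 to 8.86 and 8.15 to 8.50 in MM cells and 11.81 to 12.02 and 11.82 to 12.17 in diluted cortex. Standard-labelled cortex gave only 7.45 and 7.52, so that relative to the receptor shift JG cells were lower than diluted cortex (-4.04 and -4.23) but higher than standard-labelled cortex by 0.44 and 0.30.

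Genes of other cortical cell types seldom reached high levels in JG cells. Of 18 endothelial genes 12 were lower (like-level rate 11), with a median of -1.81, or -0.89 against standard-labelled cortex. Emcn, endomucin, measured 5.78 to 6.35, against 9.79 to 9.97, and Pecam1 6.16 to 6.54, against 7.76 to 8.33. Cldn5, a tight junction gene, was 10.77 in cell 5 and at most 7.51 in the others, against 9.40 to 9.47. Of 17 leukocyte genes 12 were lower (like-level rate 10.8), with a median of -1.82, or -0.63 against standard-labelled cortex, led by the class II genes H2-Ab1 (6.25 to 7.17, against 10.57 to 10.61) and Cd74 (6.53 to 6.99, against 9.63 to 9.76). Of 9 podocyte genes 4 were lower (like-level rate 4.82). Nphs1, nephrin, was near background on both sides (6.91 to 7.98, against 6.71 to 6.93), and Cdkn1c, a cell cycle inhibitor gene, was above background in all 5 cells (8.12 to 8.54) and in cortex (8.29 to 9.10). Of 15 interstitial fibroblast genes 5 were lower (like-level rate 7.01) and 15 of 75 pairs were above background, and all 4 erythroid genes were at background in JG cells. Over the 63 genes of these 5 lists, only Cldn5 in cell 5 reached 10 in any JG cell. Few reached it elsewhere either, with 2 to 4 of the 63 in diluted libraries and 0 to 4 in MM cells.

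How often a JG cell showed a gene was lowest for genes dim in cortex and highest for the brightest, with no steady rise between. Of 9089 genes under 6 in diluted cortex, a cell had on average 0.78% above background. In the classes from 6 to 11, each 1 unit wide, the share was 14.97%, 13.96%, 11.9%, 14.35% and 18.5%. It was 28.6% from 11 to 12 and 49.5% at 12 or more. Even of the 260 brightest cortex genes, 21.5% were above background in no JG cell and 20% in all 5. Of the 8808 genes above background in all diluted libraries, 5731 (65.1%) were above it in no JG cell and 1274 (14.5%) in just 1. The background level was 7.62 to 8.003 in JG cells and 6.32 to 6.41 in diluted cortex. A gene with equal signal in both groups between those levels thus counts as above background in cortex alone. In reverse, 566 genes were above background in all 5 JG cells, and 523 of these also in all 3 libraries. The count of 566 became 2799 with the 95th percentile of the receptors as background level and 113 with the highest receptor, so it depends on where that level is set.

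High signals were scattered over the cells. At 10 or more, where no olfactory receptor reached on any array, cells 4 to 8 had 248, 214, 316, 552 and 340 genes, against 1748 to 1764 in diluted libraries and 389 to 1365 in MM cells. Of the 946 genes that reached 10 in any JG cell, 570 did so in just 1 cell and 46 in all 5. Of 1633 genes at 10 or more in all 3 diluted libraries, 1044 reached 10 in no JG cell.

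**Figure D4:**
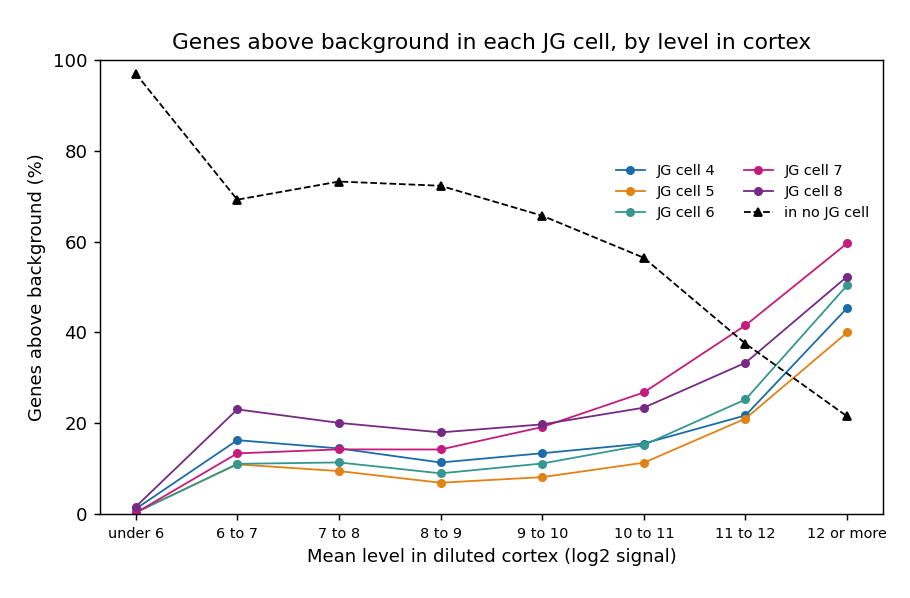
Share of genes above background (y axis, percent) in each of JG cells 4 to 8 (coloured lines) and in no JG cell (dashed line), for genes grouped by their mean log2 signal in diluted cortex (x axis). In every cell the share is highest for the 260 genes at 12 or more in cortex, between 40% in cell 5 and 59.6% in cell 7.

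Lists for functions that all cells share were mostly lower, to unlike degrees. Ribosomal protein genes were the brightest, with 203 of 260 pairs of a cell and a gene above background (78.1%) and 19 of 52 genes above it in all cells, against 40.7% of pairs for all genes of like level. Of the 52, 41 were lower, against 48.7 at the like-level rate. Their median was -1.99 with all cells and -0.80 without cells 4 and 5. Cells 4 and 5 had 29 and 32 of the 52 above background, and cells 6 to 8 had 47, 48 and 47. In Rpl29 every JG cell lay above every library (10.998 to 11.88, against 10.27 to 10.49), while Rpl10a was present in cells 7 and 8 only (5.81, 6.09, 6.51, 12.45 and 13.13, against 12.49 to 12.63) and Rpl22 in cell 8 only (9.37, with at most 6.30 elsewhere, against 9.90 to 10.05). MM cells held 11.99 to 12.76 of Rpl10a and 10.14 to 10.81 of Rpl22.

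Mitochondrial genes differed among themselves. Of 38 nuclear-encoded respiratory chain genes 37 were lower (like-level rate 36.9), with a median of -3.88. Of their pairs, 98 of 190 were above background (51.6%, against 40.3% for all genes of like level). The number above background was 13, 16, 22, 27 and 20 in cells 4 to 8. Cox6a1 was bright in all (12.77 to 13.22, against 12.95 to 13.12), as was Ndufb9, a complex I subunit gene (8.24 to 12.95, against 12.16 to 12.24), while Uqcrc2, a core subunit gene of complex III, was at background in all (5.53 to 7.59, against 12.31 to 12.38). The mitochondrially encoded ND3 measured 5.44, 12.90, 12.21, 11.88 and 12.28, against 11.56 to 11.62, and was at background in cell 4 alone. All 18 genes of the citric acid cycle and all 19 of fatty acid oxidation were lower (like-level rates 17.6 and 18). Their medians were -5.47 and -6.001. Of their pairs, 16.7% and 12.6% were above background, against 30.1% and 28.7% for all genes of like level. Mdh2, a malate dehydrogenase gene, remained above background in the 5 cells (7.65 to 12.50, against 12.96 to 13.04), and the fumarase gene Fh1 in none (4.90 to 5.93, against 11.43 to 11.55). Acadm was at background in every cell (5.88 to 6.24, against 12.16 to 12.62), while Acadvl, for very long chains, was above it in 4 (7.16, 8.08, 9.91, 9.82 and 10.61, against 11.82 to 12.03). Of 13 glycolysis genes 11 were lower (like-level rate 11.5). Aldoa, an aldolase gene, was the exception in level, at 11.85 to 13.08, against 12.47 to 12.49.

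Genes of the secretory route, which renin takes, were lower about as often as other genes that are as bright in cortex. Nearly all genes of that brightness were lower, so the count leaves little room for a difference. In the ER entry and folding list 27 of 29 genes were lower, in the Golgi and vesicle list 29 of 30, in the lysosome and granule list 19 of 20 and in the vacuolar proton pump 14 of 14. The like-level rate gives 28.4, 28, 18.6 and 13.5. Of their pairs of a cell and a gene, 24.8%, 17.3%, 14% and 18.6% were above background. For all genes of like level the shares were 21%, 20%, 24.6% and 28.3%, and the distances were not tested. Their medians were -4.36, -3.60, -4.61 and -5.01. Sec61b was bright in every cell (12.64 to 13.08, against 11.86 to 12.09), but the signal peptidase subunit gene Spcs1 was at background in every cell (5.74 to 6.20, against 11.83 to 11.89). Ppib, an ER prolyl isomerase gene, was also bright in every cell (11.59 to 13.28, against 12.19 to 12.25). In the Golgi list, Rab2a and the cargo receptor gene Tmed2 measured 5.28 to 7.44 and 5.12 to 7.92, against 11.52 to 11.74 and 11.99 to 12.10. Of granule genes, the tetraspanin gene Cd63 measured 12.44, 5.52, 12.13, 11.69 and 4.66, against 11.40 to 11.47, high in cells 4, 6 and 7, and the cathepsin gene Ctsl 12.38, 7.50, 10.76, 6.05 and 6.53, against 12.21 to 12.46, high in cells 4 and 6. Lamp2 and Psap, of lysosomal membrane and lumen, were at background (4.51 to 5.96 and 5.82 to 6.84, against 11.35 to 11.53 and 11.82 to 11.94). Of the pump subunits, Atp6v0e was at 8.95 or more in 4 of 5 cells (7.25, 9.80, 8.95, 12.13 and 11.92, against 12.33 to 12.35), and Atp6v1e1 was at background (5.88 to 6.61, against 12.20 to 12.43).

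Genes of the cytoskeleton and of acute responses were less far from the shift. Of 19 genes of actin turnover 15 were lower (like-level rate 17.9), with a median of -2.89. Profilin, Pfn1, measured 13.36, 10.28, 11.29, 12.41 and 8.33, against 12.97 to 13.01, and the Arp2/3 subunit gene Arpc5 5.50 to 8.19, against 11.23 to 11.36. Of 22 immediate early genes 0 were higher and 5 lower (like-level rate 12.4), with a median of -0.19, or 0.13 against standard-labelled cortex. Of their pairs, 43 of 110 were above background (39.1%, against 9.06% over all genes). Junb was 12.29 in cell 4 and at most 8.48 elsewhere, against 7.37 to 7.83. Klf2, a flow-responsive factor gene, was 11.91 in cell 5 and 7.69 to 11.91 over all cells, against 7.73 to 8.005. Jund measured 10.56, 10.43, 8.76, 9.28 and 9.10, against 7.82 to 8.40, and Egr3 8.22 to 8.97, against 6.69 to 6.84. All 4 lay below the fold of 1 beyond the shift. The JG cells had been freed with enzymes and no such step is recorded for cortex, and the part of this step in these genes was not tested.

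Of 22 heat shock and chaperone genes, 20 were lower (like-level rate 21.4) and 1, Hspb1, was higher. Hspb1, a small heat shock protein gene of muscle and vessels, measured 11.40, 13.46, 12.66, 12.67 and 13.14, against 10.30, 10.35 and 10.24 in diluted cortex and 7.15 to 10.61 in MM cells. Every JG cell lay above every library. The inducible gene Hspa1a measured 9.70, 10.54, 8.67, 7.93 and 11.08, against 8.02 to 8.40, and the mitochondrial chaperonin gene Hspd1 4.95 to 5.98, against 11.53 to 11.67. Of 23 antioxidant genes 22 were lower (like-level rate 21.9), though Gpx4 (11.48 to 12.65, against 12.39 to 12.58) and Sod1 (10.58 to 12.43, against 12.74 to 12.83) stayed bright in every cell.

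**Figure D5:**
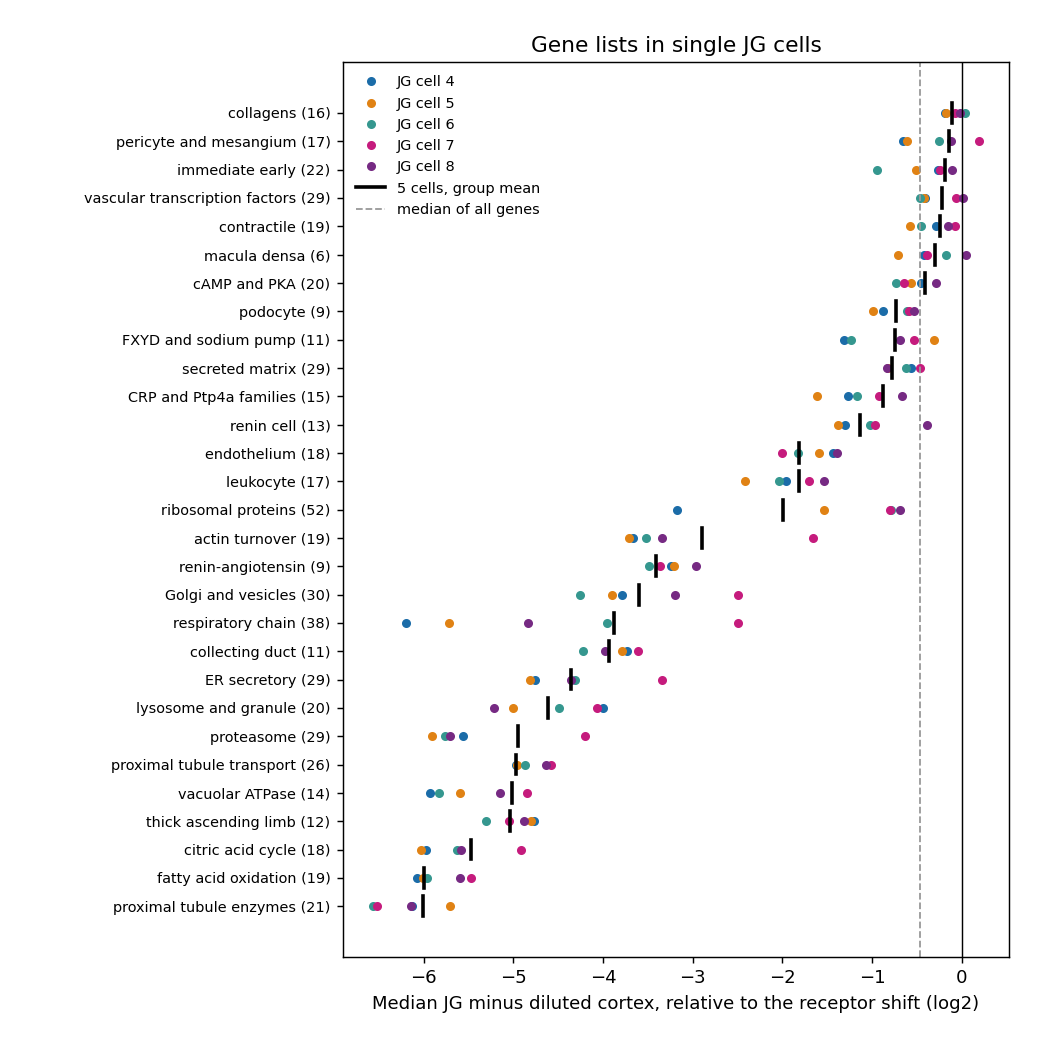
Median difference from diluted cortex relative to the receptor shift (x axis, log2) for 29 gene lists (y axis, measured genes in brackets), for each JG cell (circles) and for the mean of 5 cells (bars). By the mean of 5 cells, collagen, pericyte and contractile lists lie at -0.12, -0.15 and -0.24 and proximal tubule enzymes at -6.01; cell 7 is the highest for the respiratory chain, and cells 4 and 5 are the lowest.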

How the data were processed

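The values used were the deposited log2 signals of the probe sets, made with Affymetrix Expression Console per the submitters' processing notes. For its version, the summary algorithm, any normalization between arrays and the genome build, nothing is given in the sources used here. Gene names came from the annotation of the platform: of 35557 probe sets, 21789 carry 1 symbol, 1621 several, and 12147 are unlisted. The difference of group means was set against the median difference of 1015 olfactory receptors, and counts use a fold of 1 log2 beyond it. An array has no count depth, and the number of arrays limits the precision. No label names an animal, so no test was made. The calling script was tested on simulated data.

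Genes named are ranks 11 to 30 in each direction among genes whose groups do not overlap and whose higher mean is above background, up to 6 members per list by size of difference, the 20 genes with the highest lowest JG value, and the markers Mgp, Crip1, Ptp4a3 and Fxyd1. Others, named only for cell by cell values, were chosen after their values were seen, and this holds for all further genes given as examples of a list. The members, gene lists and rules were chosen with earlier results of these data known. Alternatives changed the background class, centring, group summary, probe set rule, filter, cortex reference, background level and arrays included. Python 3.11.15, numpy 2.4.6, pandas 2.3.3 and matplotlib 3.10.9 were used.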

Additional observations from a re-analysis of the deposited data

Results flagged for a closer look

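In the 5 JG cells, 173 values (167 genes and 6 list medians) were examined for a cell far from the other 4, by a rule that chance meets in about 1 group in 20, and 24 met it, 19 with a high and 5 with a low cell. Since many of these genes were named because 1 cell differed, the number has no expectation to be set against.

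In cell 4, Apold1 (12.80), Timp3 (12.55) and Junb (12.29) were high and ND3 (5.44), COX2 (12.15) and Rplp1 (12.86) low. In cell 5, Miox (12.63), Gpx3 (12.37), Fxyd2 (12.30), Atp1b1 (9.93), Cldn5 (10.77) and Cmbl (6.78) were high, the last still below background. In cell 6, Prdx2 (11.17) was high and Igfbp7 (10.53) low. In cell 7, Jph2 (12.07), Mir7-1 (11.48), Myl9 (12.79), Sparc (11.70), Slc8a1 (11.65) and Idh1 (5.58, below background) were high and Rpl29 (10.998) low. In cell 8, Pln (12.32), Des (10.60) and Rab2a (7.44, below background) were high.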

How the results depend on the processing

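No paired analysis was possible because the JG cells and the cortex libraries share no replicate numbers. The count of 109 higher genes became 1366 with arrays centred on the median of all probe sets, 63 with keratin-associated, defensin and taste receptor genes as background and 190 against standard-labelled cortex; leaving out 1 array gave 96 to 150. The count of 8166 lower genes stayed within 6763 to 8570 in all alternatives. The count of 566 genes above background in all 5 cells became 2799 and 113 with the 95th percentile and the highest receptor as level, and 586 to 718 over 4 cells; the count of 5731 in no cell ranged from 3831 to 6229. Medians relative to the shift, with arrays centred on the median of all probe sets, were 0.28 for contractile, 0.38 for pericyte, -4.45 for proximal transport, -5.48 for proximal enzyme and -4.51 for thick limb genes. Contractile genes gave -0.97 with dim genes left out. Proximal transport genes gave -5.11 with keratin-associated genes as background, -4.89 with group medians, -4.71 without cells 4 and 5 and -5.07 to -4.86 leaving out 1 array. Against standard-labelled cortex, they gave -4.22 and thick limb genes -4.56. Ribosomal protein genes gave -0.91 with group medians and -0.80 without cells 4 and 5. Of 167 genes, 12 that were 1 or more from the shift changed sign somewhere. Sign changes of genes within 1 of the shift were not counted. With group medians Sncg became -0.19, Pln -0.0327 and Mir7-1 -0.0948; leaving out 1 array, Pln ranged from -0.0938 to 1.49 and Mir7-1 from -0.14 to 1.54. Acta2 became 0.0771 without cells 4 and 5. Against standard-labelled cortex, Rplp1 became 1.16, Rpl13 0.49, Amn 0.44, Cldn5 0.37, Crip2 0.34, Aqp2 0.30, Bsg 0.22 and Aldoa 0.0638. No list of 45 with a median past 1 changed sign. The causes of these changes were not tested. Fewer genes above background in the cells limit what can be read from them, and cells were not tied to animals.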

Other observations

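Counts of lists not described above are given beside the like-level rate used in the report. All 29 proteasome genes and 76 of 77 mitochondrial ribosomal protein genes were lower in JG cells (28.6 and 75.5 at the rate of all genes of like level in diluted cortex), with medians of -4.95 and -4.28 relative to the receptor shift. All 26 translation factor genes were lower (like-level rate 25.2, median -4.29), although Eef1a1 measured 12.85 to 13.55 in the cells. Of 7 genes of ubiquitin and related modifiers 7 were lower (like-level rate 6.84), and of 6 class I histocompatibility genes 3 (3.88). Of 25 cell cycle genes 15 were lower (like-level rate 13.3), with 9 of 125 pairs of a cell and a gene above background. Of 29 transcription factor genes of mural cells 0 were higher and 6 lower (like-level rate 8.43), with a median of -0.23, or -0.36 against standard-labelled cortex. Of 26 replication-dependent histone genes 8 and of 54 small nucleolar RNA genes 15 were lower (like-level rates 10.6 and 7.44), and 0 of either were higher.

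Some further genes, chosen after their values were seen, varied between cells or cortex references. The interferon-induced membrane protein gene Ifitm2 measured 10.24, 13.04, 12.48, 11.73 and 12.46 in cells 4 to 8, 9.79 to 10.22 in diluted cortex and 10.99 to 11.33 in MM cells, and was 0.93 relative to the shift, just under the fold. Bsg, which encodes basigin, measured 10.52 to 12.49, against 11.66 to 11.76 in diluted and 10.21 (mean) in standard-labelled cortex. Cenpa, the centromeric histone gene, was 13.05, 8.94, 9.56, 11.63 and 7.32 in JG cells, against 7.36 to 7.39 in diluted cortex, and MM cells held 7.88 to 11.93. Sgca, alpha-sarcoglycan of the muscle membrane complex, reached 9.39 in cell 7 and 8.10 in cell 6, was below background in the other cells, and measured 5.27 to 5.41 in diluted cortex.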
